A study of Mus musculus with 2 samples.

Results

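The loci described here are those of 9 mouse genes that prepare chromosomes for replication or set its timing: the 6 subunits of the origin recognition complex (Orc1, Orc2, Orc3, Orc4, Orc5 and Orc6), the helicase loaders Cdc6 and Cdt1, and the timing regulator Rif1. Their members are the windows of 50 kb that overlap the RefSeq span of each gene on GRCm38, with the windows within 250 kb either side as context. This gave 16 windows for the 9 genes and 88 context windows, out of 43941 windows in the table. The contacts were measured by Promoter Capture Hi-C, in which crosslinked chromatin is cut with HindIII and religated inside the nucleus, and RNA baits then enrich fragments from promoters. The cells were F121-6 embryonic stem (ES) cells, a female hybrid line with a 129 and a Cas (Mus castaneus) genome, grown without any other treatment stated on mitomycin-inactivated mouse embryonic fibroblasts in medium with LIF. The 2 samples, replicates 1 and 2, form 1 group, and the labels do not say whether they came from separate cultures. The table merges them into a single value per allele, so a p-value here compares a window with the spread between windows, not between samples. It holds no expression values, so the cell type could not be checked against markers, and the share of DNA from the feeder cells was not measured.

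Replication origins are licensed before S phase. The origin recognition complex binds DNA and, with Cdc6 and Cdt1, loads the MCM helicase as an inactive double ring. Licensed origins fire later, in an order typical of the cell type. Rif1 brings protein phosphatase 1 to chromatin, counteracts the kinase that activates the helicase, and is known to delay replication of late domains. ES cells have a short G1 phase, the phase in which most licensing takes place.

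The baits target the ends of HindIII fragments at promoters, and which fragments were baited at these genes was not analysed here. RefSeq promoters on GRCm38.p6, running from 250 bases before to 50 after a start site, were found for 8 of the 9 genes (11 entries) and not for Rif1. The 11 entries had a median GC content of 63.3% and 21 CpG, against 52.7% and 7 over all 32851 promoters. Both searches below were chosen after the promoters had been read, so they describe the sequences and no more. The HindIII site AAGCTT, which reads the same on both strands, lies in 1 of the 11, that of Orc5, against 7.45% of all promoters. It begins at position -17 from the Orc5 start site, so a cut there parts the sequence before the start from the gene itself. The stretch on the minus strand, chr5:22550310-22550395, has the site in capitals.
Orc5: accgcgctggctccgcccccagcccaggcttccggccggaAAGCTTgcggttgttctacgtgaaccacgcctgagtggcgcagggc

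E2F factors switch on many replication genes at the start of S phase. The letters TTTCGCGC, TTTGGCGC, TTTCCCGC and TTTGCCGC, searched on both strands, occur in 4 of the 11 entries, each of a different gene, and in 2.26% of all promoters. Each of these words contains CG, and the members' promoters have the higher median CpG count given above, so the shares are not of like sequences and nothing about binding follows. The matches, in capitals, begin at position -27 from the start site in Orc1 (plus strand, chr4:108579387-108579474), -41 in Orc3 (minus strand, chr4:34614936-34615023) and -138 in Cdc6 (plus strand, chr11:98907973-98908060). In Cdt1 the match begins at position 33, past the start site (plus strand, chr8:122568007-122568064). The strands in brackets are those of the genes. In Orc1 and Cdc6 the word searched for lies on the opposite strand, so the capitals show its reverse complement. These 4 stretches are shown, 5′ to 3′ on the strand of the gene, to compare the letters around each match.
Orc1: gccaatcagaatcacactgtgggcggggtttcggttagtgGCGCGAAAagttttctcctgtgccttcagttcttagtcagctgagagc
Orc3: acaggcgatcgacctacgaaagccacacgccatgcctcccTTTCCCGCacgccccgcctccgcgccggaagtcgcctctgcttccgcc
Cdc6: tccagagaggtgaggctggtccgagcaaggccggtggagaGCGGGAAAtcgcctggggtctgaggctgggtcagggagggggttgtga
Cdt1: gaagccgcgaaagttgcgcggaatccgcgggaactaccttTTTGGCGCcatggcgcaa

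The first comparison asked whether the contacts of these genes were shared unequally between the alleles. None of the 9 genes was called as unusual for the table. By ratio of 129 to Cas counts, they ranked from above 16.0% of all protein-coding loci (Orc6) to above 80.5% (Orc3). Over the table, 57.6% of interactions were on 129 (50842396 on 129 and 37470557 on Cas), and the counts were higher on 129 in 16 of the 16 member windows, as in 91.8% of all windows tested. Ratios below are therefore log2 of 129 over Cas, each count raised by 1, minus the median of all windows, so that 0 is a typical window. On this scale the 16 windows ran from -0.30 to 0.16 with a median of -0.04, and 13 of them lay within 0.2 of 0, against 48.7% of all windows. Among windows with 1000 or more interactions this was 12 of 15, against 59.8%. A beta-binomial test, which lets the 129 share vary between windows by a fitted standard deviation (SD) of 6.35 percentage points, called 0 of the 16 at a Benjamini-Hochberg adjusted p of 0.05, against 0.944% of all windows (0.727% higher on 129 and 0.217% higher on Cas). None had an unadjusted p under 0.05 (0 of 16, against 5.51% of all windows). The two-sided exact binomial test, which allows for counting error alone, called 6 of the 16, against a background of 51.4%. Relative to the table, 2 of them leaned towards 129 and 4 towards Cas, against 27.1% and 24.3% of all windows.

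**Figure D1:**
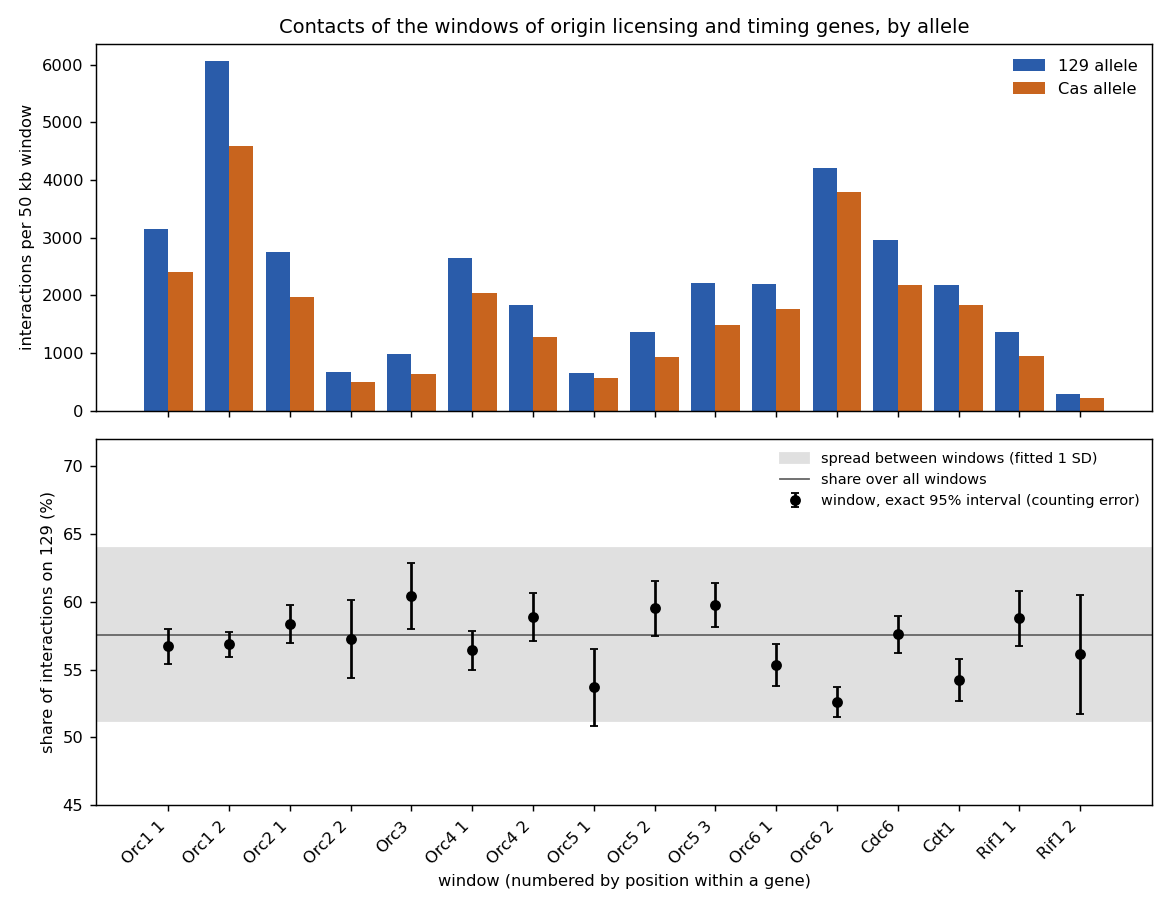
Interactions on each allele (upper panel, bars, 129 in blue and Cas in orange) and the 129 share in percent (lower panel, points with exact 95% intervals for counting error) in the 16 windows of the 9 genes. The line marks the share of the whole table, 57.6%, and the grey band 1 fitted SD between windows, 6.35 percentage points, within which all 16 points lie.

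Orc1 encodes the largest subunit of the complex, an ATPase whose level varies over the cell cycle. It spans 108575705 to 108616030 on chromosome 4. Its window with the gene start (from 108550001) had 3156 interactions on 129 and 2409 on Cas, and the next window had 6053 and 4595. The shares on 129 were 56.7% (exact Clopper-Pearson 95% interval 55.4 to 58.0%) and 56.8% (55.9 to 57.8%), so both windows were alike. The second of these windows, with 10648 interactions, was the most contacted of the 16 and exceeded 99.0% of all windows in the table. It also holds parts of Cc2d1b and Zfyve9, and the window of the start also holds parts of Tut4 and Prpf38a, so the contacts are not those of Orc1 alone.

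Orc2 is a core subunit that pairs with Orc3. It spans 58462771 to 58505113 on chromosome 1. The window that holds most of it (from 58450001, shared with Nif3l1) had 2758 interactions on 129 and 1969 on Cas. The window with its start (from 58500001, shared with Fam126b) had 677 and 505. The start window thus had fewer contacts on both alleles, and its 1182 interactions exceeded 13.9% of the windows with 2 protein-coding genes. The 129 shares were 58.3% (56.9 to 59.8%) and 57.3% (54.4 to 60.1%).

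Orc3 spans 34566781 to 34614963 on chromosome 4. Of its 2 windows, 1 is in the table (from 34600001), which holds the start of Orc3 and part of Rars2, a mitochondrial arginyl-tRNA synthetase gene. With 977 interactions on 129 and 640 on Cas, its 129 share was 60.4% (58.0 to 62.8%). This was the highest share of the 16 windows, 0.44 fitted SD above the table.

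Orc4, an ATPase-fold subunit, spans 48902824 to 48952902 on chromosome 2. Its first window (from 48900001, shared with Acvr2a and Mbd5) had 2647 interactions on 129 and 2044 on Cas. The window with its outermost start (from 48950001, shared with Mbd5) had 1836 and 1282. Of the 3 RefSeq promoter entries of Orc4, 1 has its start site in the first window, and it is the richest in CpG of the 3 (21, against 6 and 4). The shares were 56.4% (55.0 to 57.9%) and 58.9% (57.1 to 60.6%), on either side of the table's share.

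Orc5, another subunit with an ATPase fold, spans 22486480 to 22550338 on chromosome 5, and no other protein-coding gene overlaps its 3 windows. The window from 22450001 had 652 interactions on 129 and 562 on Cas, the middle window had 1360 and 925, and the window with the start had 2212 and 1489. Contacts thus increased towards the gene start on both alleles, although the start window holds only 338 bp of the span. The 129 shares were 53.7% (50.9 to 56.5%), 59.5% (57.5 to 61.5%) and 59.8% (58.2 to 61.4%), so the window at the far end of the gene was the lower on 129 of the 3. That difference lay within the fitted spread, with deviations of -0.59, 0.30 and 0.34 SD.

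Orc6, the smallest subunit, spans 85299632 to 85308279 on chromosome 8. The window with its start (from 85250001, shared with Vps35) had 2188 interactions on 129 and 1767 on Cas, and the next window (shared with Mylk3) had 4213 and 3798. The latter had the lowest 129 share of the 16, 52.6% (51.5 to 53.7%), which lay 0.78 fitted SD below the table. Its adjusted p was 1 by the beta-binomial test and 5.64e-18 by the binomial test.

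Cdc6, the ATPase that completes the loading platform with the complex, spans 98907709 to 98923942 on chromosome 11. It lies in a single window (from 98900001), shared with Wipf2, Rara and Gm46294. That window had 2957 interactions on 129 and 2176 on Cas. Its share of 57.6% (56.2 to 59.0%) was closer to that of the table than any other of the 16, at 0.0058 fitted SD.

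Cdt1, which carries the helicase to the origin and is degraded once S phase begins, spans 122568015 to 122573130 on chromosome 8. Its single window (from 122550001) also holds parts of Piezo1, Aprt and Galns and had 2172 interactions on 129 and 1833 on Cas. The share was 54.2% (52.7 to 55.8%). Orc6 and Cdt1 were the lowest of the 9 genes, and both lie on chromosome 8, where 55.9% of all interactions were on 129. Relative to the median window of that chromosome their log2 ratios were -0.14 and -0.09, against -0.25 and -0.21 relative to the table. Whether the low shares belong to the chromosome or to the loci was not tested.

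Rif1 spans 52072815 to 52126769 on chromosome 2. Its window from 52050001, shared with Tnfaip6, had 1364 interactions on 129 and 956 on Cas, and its window from 52100001, shared with Neb, had 288 and 225. The second window was the least contacted of the 16, and its 513 interactions exceeded 4.22% of the windows with 2 protein-coding genes. The 129 shares were 58.8% (56.8 to 60.8%) and 56.1% (51.7 to 60.5%).

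The same comparison was made per gene, on counts summed over the windows of its span. From high to low, the 129 share was 60.4% for Orc3, 58.7% for Orc5, 58.3% for Rif1, 58.1% for Orc2, 57.6% for Cdc6, 57.4% for Orc4, 56.8% for Orc1, 54.2% for Cdt1 and 53.5% for Orc6. The beta-binomial test called 0 of the 9 loci, with 0 at an unadjusted p under 0.05, against 1.36% called of 18479 protein-coding loci. The binomial test called 3 of the 9, against 67.5% of all loci. These were Orc3 towards 129, and Orc6 and Cdt1 towards Cas, against 29.2% and 38.3% of all loci. Loci varied with a fitted SD of 5.17 percentage points, and no neighbours in the order differed beyond it. Between the ends of the order, Orc3 and Orc6, the difference was 6.93 percentage points. The fitted spread gave a 95% range of -7.63 to 21.5 around it, from an SD of 7.43 points. That spread is of shares over all loci and can include real differences between them. The range is therefore not the uncertainty of this difference, for which counting error alone gave an SD of 1.30 points. Of the 36 pairs of genes, 0 had such a range without 0. This says only that no pair lay further apart than loci commonly do. When counting error alone was allowed for, 18 pairs had an interval without 0.

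The limits for a call are wide. At the count of Orc1, 16213 interactions, a call would have needed a 129 share of at most 39.8% or at least 74.2%, a 2.07-fold or 2.11-fold shift from a typical window. At the count of Orc3, 1617, it would have needed 39.3% or 74.7%. The bounds are nearly the same at 1617 and at 16213 interactions, so the spread between loci and not the depth set them. They tell how far a locus must lie to be unusual among loci. Smaller allelic differences at these genes are neither shown nor excluded by this test.

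The second comparison set each gene against its surroundings. No flank, the sum of up to 10 windows within 250 kb, was called (0 of 9, 0 at an unadjusted p under 0.05, against 0.469% of the flanks of all protein-coding loci), and 6 of the 9 lay below 0 in log2 ratio. The flank shares ran from 53.3% at Orc2 to 59.8% at Orc4. Around Cdt1, 9 of 10 flank windows lay below 0, with a flank share of 53.7% (53.2 to 54.1%) beside 54.2% at the gene. Its flank ratio was much the same at 100, 250 and 500 kb, at -0.26, -0.24 and -0.24. The flank ratios at 100, 250 and 500 kb also changed little at Orc1 (-0.12, -0.13 and -0.10) and Orc5 (-0.09, -0.11 and -0.11). The genes themselves were at -0.06 and 0.05. For the other genes the comparison depended on the width of the flank. At Orc3 the flank ratio of 0.09 was -0.02 with 100 kb, against 0.16 at the gene. At Orc4 the flank ratio of 0.12 was 0.03 with 500 kb, against -0.02 at the gene. Orc6 had 54.0% (53.5 to 54.4%) in its flanks and 53.5% at the gene, but its flank ratio of -0.22 was -0.02 with 500 kb, against -0.25 at the gene. At Cdc6 the gene and its flanks had 57.6% and 57.2%, but the flank ratio of -0.04 was -0.19 with 100 kb, against -0.01 at the gene. At Rif1 they had 58.3% and 58.1%, and the flank ratio of 0.02 was -0.12 with 100 kb. At Orc2 they had 58.1% and 53.3% (52.7 to 53.9%), a gap of 0.28 in log2 ratio, and the flank ratio of -0.26 was -0.07 with 100 kb and -0.17 with 500 kb, against 0.02 at the gene. When each member window was tested against the share of its own flanks, the beta-binomial test again called 0 of 16.

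**Figure D2:**
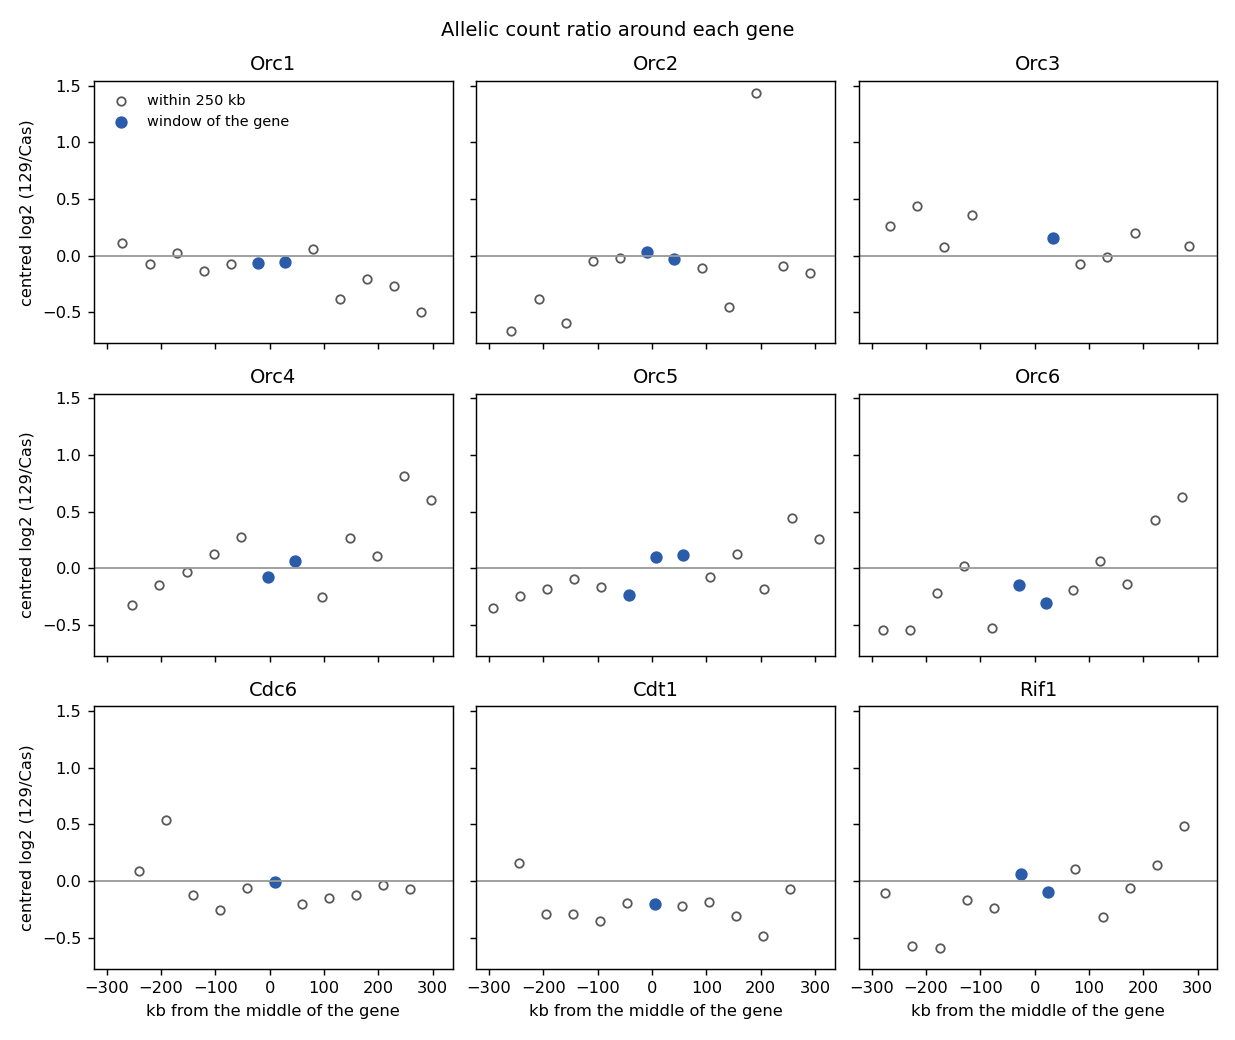
Centred log2 ratio of 129 to Cas counts (vertical axis) by distance in kb from the middle of each gene (horizontal axis), with windows of the gene filled and windows within 250 kb open. The filled points stay between -0.30 and 0.16, while open points reach -0.67 and 1.43 near Orc2.

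Single context windows varied more than those of the genes, with an SD of 0.34 in log2 ratio over 88 windows against 0.13 over 16. The sets differ in depth, since 66 of the 88 had 1000 or more interactions, against 15 of the 16. Over all windows the SD was 0.45, and 0.36 over those with 1000 or more. None of the 88 was called, against 0.944% of all windows, and 2 had an unadjusted p under 0.05, against 5.51%. The binomial test called 55 of the 88, against 51.4%. Near Orc2, the window of Flacc1 on chromosome 1 (from 58650001) had counts of 269 on 129 and 72 on Cas, so 78.9% (74.2 to 83.1%) were on 129, with an adjusted p of 0.083 in the beta-binomial test. At the opposite end of the same region, the window of the aldehyde oxidase genes Aox3 and Aox4 (from 58200001) had 2460 and 2861, a share of 46.2% and a ratio of -0.67. The other window with an unadjusted p under 0.05 lies in Mbd5 near Orc4 (from 49150001) and had 392 and 162, a ratio of 0.82 with an adjusted p of 0.871. The lowest context window of Orc4 (from 48650001) was at -0.32. At the other genes the lowest and highest context windows were at -0.50 and 0.11 for Orc1, -0.08 and 0.44 for Orc3, -0.35 and 0.44 for Orc5, -0.55 and 0.63 for Orc6, -0.26 and 0.54 for Cdc6, -0.49 and 0.16 for Cdt1, and -0.60 and 0.48 for Rif1. Each of these ranges includes the ratio of the gene itself.

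Both sides of a gene could differ. Around Orc6 the 5 windows at lower coordinates had a 129 share of 51.2% and the 5 at higher coordinates 61.3%. On the higher side, the window of Gpt2 and Dnaja2 (from 85500001) had a ratio of 0.42 and the next, of Dnaja2, 0.63. The other windows of that side were at -0.19, 0.06 and -0.14, the last also in Gpt2. Around Rif1 the sides had 51.9% and 60.2%, with 0 of 5 windows above 0 on the lower side and 3 of 5 on the higher side. Orc4 had 58.4% and 63.6%, Orc2 51.9% and 56.7%, and Orc5 54.8% and 58.8%. Orc1 (57.4% and 52.8%), Orc3 (62.4% and 58.9%) and Cdc6 (58.7% and 55.6%) went the other way. At Cdt1 the sides were nearly equal, at 53.3% and 54.2%. None of the 18 sides was called (adjusted p of 1 for each, beta-binomial test), and the difference between sides was not tested.

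The third comparison set the distances spanned by contacts side by side. The table gives 1 distance per allele and window, taken to be in bp. The sources do not state whether it is a mean or a median, and with no spread no test was made. Distances were longer on 129 in 8 of the 16 windows and on Cas in 8, with a median log2 ratio of -0.02. They differed by 2-fold or more in 2 windows, 12.5%, against 17.1% of all windows and 8.56% of those with 1000 or more interactions, which 15 of the 16 had.

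The larger difference was at Rif1. In its window from 52050001, contacts spanned 83 kb on 129 and 29.5 kb on Cas, 2.81-fold longer on 129, although the counts were balanced at 58.8% on 129. Of all windows, 8.70% had distances at least as far apart, and of those with 1000 or more interactions 3.33%. The window holds 27186 bp of Rif1 and also part of Tnfaip6, so which promoter the contacts belong to cannot be told apart. In the rest of Rif1 the distances were nearly equal, at 538 kb on 129 and 530 kb on Cas. Among the flanking windows 8 of 10 were longer on 129, with 4095.5 kb against 1197 kb in a window with no protein-coding gene (from 51800001), while the adjoining Tnfaip6 window (from 52000001) went the other way with 294 and 595 kb.

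The other was the start window of Orc2, with 147 kb on 129 and 365 kb on Cas, 2.48-fold longer on Cas, again at balanced counts. At least as large a difference occurred in 11.0% of all windows and in 4.61% of those with 1000 or more interactions. The neighbouring window in the body of Orc2 had 35 and 37 kb. Of the 10 flanking windows 7 were longer on Cas, 2 on 129 and 1 equal.

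At the other genes the distances were less than 2-fold apart, and the start windows of Orc4 (1.48-fold longer on 129) and Orc5 (1.39-fold longer on Cas) differed most. Orc1 had 22 kb on 129 and 25 kb on Cas at its start and 30 and 25 kb beyond it, the shortest of the genes. Orc4 had 35 and 29 kb, and 49.5 and 33.5 kb at its outermost start. Orc6 had 85 and 89 kb at its start and 37 and 32 kb in the next window. The loaders were alike, with 99.5 and 113 kb at Cdc6 and 80 and 85 kb at Cdt1. Contacts reached further at Orc3, with 297 and 266 kb, and at Orc5, where the windows from the far end to the start had 148 and 139 kb, 167 and 175.5 kb, and 154 and 213.5 kb. The longest distances of the 16 windows, on both alleles, were those of the second Rif1 window.

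**Figure D3:**
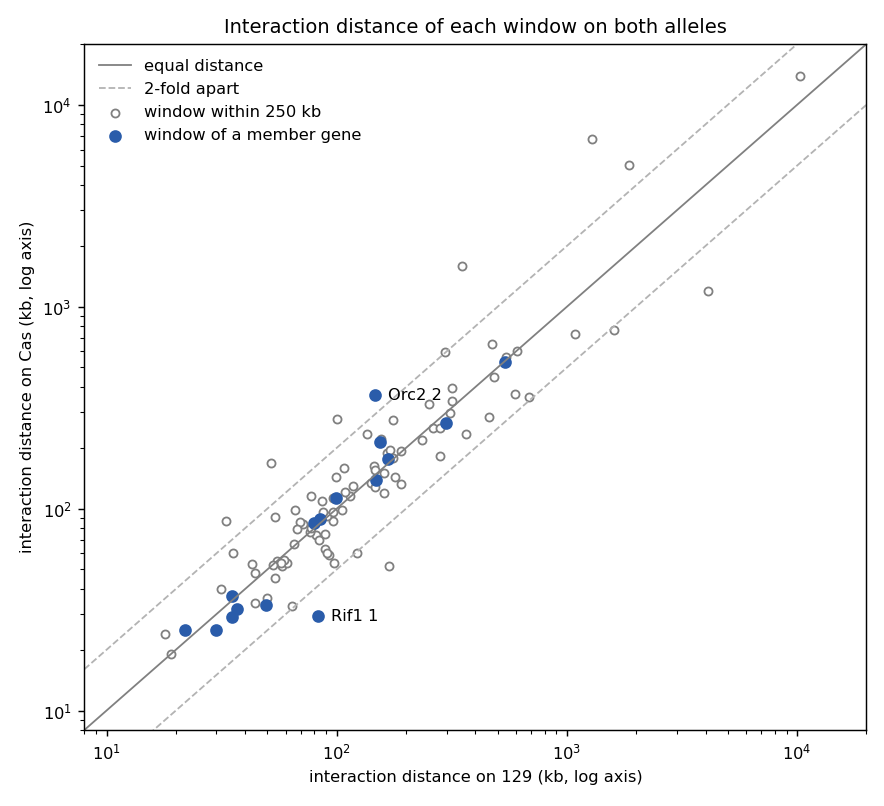
Interaction distance on 129 (horizontal, kb, log axis) and on Cas (vertical, kb, log axis) in the 16 windows of the 9 genes (filled) and the 88 windows within 250 kb (open), with lines at equal distance and at 2-fold differences. Of the filled points, 2 lie outside the 2-fold lines, the Rif1 window with 83 and 29.5 kb and the Orc2 start window with 147 and 365 kb.

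The members were then set beside other genes of the same pathway. Of 38 such genes, 34 had a window in the table. The beta-binomial locus test called 2 of the 34, 1 towards 129 and 1 towards Cas, against 0.996% and 0.368% of all protein-coding loci. The binomial test called 24 of the 34, against 67.5%. The median log2 ratio was -0.06 over the 34, -0.01 over the 9 members and -0.04 over all 18479 loci.

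Of the replicative helicase, the MCM ring that the members load, 5 subunits were tested. Of these, 1 was called, towards 129, against 0.996% of all protein-coding loci (binomial test 3, against 67.5%). Mcm4, in a window shared with Prkdc on chromosome 16 (from 15600001), had counts of 1885 on 129 and 337 on Cas. Its 129 share was 84.8% (83.3 to 86.3%), with an adjusted p of 1.09e-06 in the beta-binomial locus test. Contacts spanned 17 kb on 129 and 1494.5 kb on Cas in that window. The lowest of the 5, Mcm2, was at -0.13. Of 15 genes of origin firing, 1 was called, towards Cas, against 0.368% of all protein-coding loci (binomial test 11, against 67.5%). Ccna2, which encodes cyclin A2, an activator of S-phase kinase, lies in a window of chromosome 3 (from 36550001) with Exosc9 and Bbs7. Its counts were 2058 on 129 and 3617 on Cas, with a 129 share of 36.3% (35.0 to 37.5%) and an adjusted p of 0.00659 as a locus. The same window had an adjusted p of 0.0826 among windows, which have a wider fitted spread. Mcm10, a helicase activator, had the highest ratio of the firing genes, 0.84, with 10033 and 4103 interactions and an adjusted p of 0.276. It was called when the overdispersion was fitted within 5 classes of count, under which 3 of the 34 were called.

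Of 8 genes of licensing inhibition and turnover, 0 were called, against 1.36% of all protein-coding loci (binomial test 5, against 67.5%). They include geminin (Gmnn), the inhibitor of Cdt1, which had 2001 interactions on 129 and 1346 on Cas, and Skp2 and Dtl, which serve the destruction of Cdt1, with ratios of -0.24 and -0.07. The lowest was Ccnf, which encodes cyclin F, with 1705 and 2272 interactions, a ratio of -0.87 and an adjusted p of 0.228, and the highest was Fzr1 at 0.15. Of 6 genes of origin chromatin and phosphatase, 0 were called, against 1.36% (binomial test 5, against 67.5%). The catalytic subunits of protein phosphatase 1, the partner of Rif1, spread from -0.41 for Ppp1ca (4292 and 4178) to 0.41 for Ppp1cb (1666 and 919), with Ppp1cc at -0.15.

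**Figure D4:**
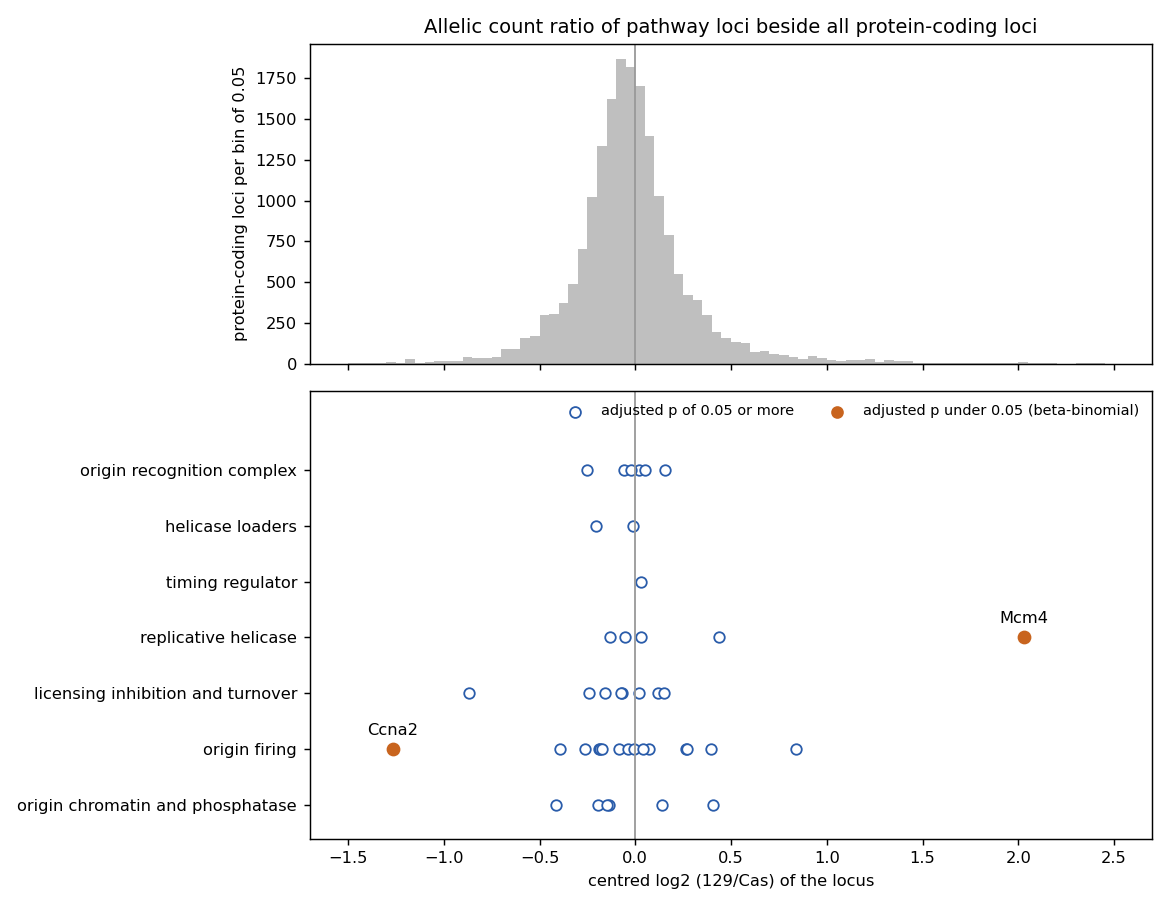
Centred log2 ratio of 129 to Cas counts for all protein-coding loci (upper panel, loci per bin of 0.05, with 63 loci beyond the axis) and for the genes of each pathway list (lower panel, 1 point per gene, filled where the adjusted p of the beta-binomial test is under 0.05). The 9 members lie between -0.25 and 0.16, and the 2 filled points are Mcm4 at 2.03 and Ccna2 at -1.27.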

How the data were processed

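Promoter Capture Hi-C of F121-6 cells (2 samples) used 2% formaldehyde, baits for 22225 promoters and paired reads of 100 bp, per the labels' protocols. Bowtie2 and mm10 are named in the submitters' processing notes. How reads were assigned to alleles, filtered, deduplicated and merged is not stated in those sources. The authors deposited whole-number interaction counts, not normalised, and a distance per allele in windows of 50 kb. Both samples list the same columns, so each was taken as a pooled value. Reads of an allele that differs more from the reference can be lost in mapping, and counts follow the baits, since capture enriches baited fragments. An interaction may be counted at both ends, so counts may not be independent. The exact intervals take them as independent and may be too narrow even for counting error. They cover no other source of spread.

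Window starts were raised by 1. Genes were placed by RefSeq spans on GRCm38.p6, all windows touched by a span being summed. Windows, loci and flanks with 10 or more interactions were tested by a two-sided beta-binomial test against the 129 share of the table, with 1 maximum-likelihood overdispersion per kind of unit (0.0165, 0.0109 and 0.0050) and Benjamini-Hochberg adjustment over all units at 0.05. Distance ratios needed 10 interactions per allele. Ratios used a pseudocount of 1. An exact binomial test was an alternative, since windows spread beyond counting error. Other alternatives were overdispersion by count, count minimums, null shares, centres, pseudocounts, flank widths, sides and the start window alone. The code was tested on simulated data.

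The members and pathway lists were chosen with earlier results of these data known. All members were described, the other pathway genes named were those called and the highest and lowest of each list, with a few chosen after their values were seen (Gmnn, Skp2, Dtl and Ppp1cc). Tests were run in scipy 1.17.1 and numba 0.67.0, tables were handled in pandas 2.3.3 and numpy 2.4.6, and plots were drawn in matplotlib 3.10.9 (Python 3.11.15). The sides of the flank, as alternatives, were chosen after seeing the data.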

Additional observations from a re-analysis of the deposited data

How the results depend on the processing

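No paired analysis was possible because the columns pool both replicates, and no replicate could be left out. The exact binomial test moved every count: 6 member windows, 3 member loci, 24 other pathway loci, 22494 windows and 12477 loci were called. With the start window alone, 0 of the other pathway loci were called, since neither Mcm4 nor Ccna2 was among the 24 that could be tested so. Under the other alternatives run, 0 member windows, loci and flanks were called. Of 233 values of single windows, loci and flanks under alternatives, 200 kept direction and call, 9 passed the threshold under the binomial test, and 24 changed sign without being called. Against the flank share these were the Orc1 windows (0.0677 and 0.0756), the Orc2 start window (0.23), the Orc4 start window (-0.0553), the Orc6 start window (0.0793), Cdc6 (0.0257) and Cdt1 (0.0314). Against the chromosome's share they were the Orc2 start window (0.0076), Cdc6 (0.0030) and the Rif1 flank (-0.0120). Cdc6 was at 0.0020 around the summed ratio and 0.0061 around the chromosome's median, where Rif1 was at -0.0021. With the start window alone, Orc2 was at -0.0303 and Orc4 at 0.0654. With flanks of 100 kb, Orc3 was at -0.0237 and Rif1 at -0.12, and with 500 kb Rif1 was at -0.0240. With 1 side of the flank, chosen after seeing the data, Cdc6 was at 0.0530 and Rif1 at -0.35 on the lower side, and Orc5 at 0.0580 and Orc6 at 0.21 on the higher side. Without a change of sign, the Orc6 flank moved from -0.22 to -0.02 with 500 kb, and the Cdc6 flank from -0.04 to -0.19 and the Orc2 flank from -0.26 to -0.07 with 100 kb. The cause of each change was not tested.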
